A study of Mus musculus with 217 samples.

Results

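The messenger RNAs of proliferation and DNA replication were followed through granulosa cells and oocytes of aging mice. The 38 genes, of 53619 rows in the deposited gene table, were chosen by symbol for their roles, by a rule that uses no measured value, though earlier results of these data were known. They comprise 15 genes of S phase, 10 genes of mitosis, 8 cyclins and kinases of the G1 phase, and 5 inhibitors and members of the Rb-E2F switch. All 38 had a row, and all 38 passed the filter on low counts, which kept 17558 genes of the granulosa libraries. In granulosa cells the members called at an adjusted p under 0.05 were Cdkn1b and Ccna2 with age, Ube2c and Birc5 with resveratrol, and Ube2c, Birc5 and Pcna with the Tet2 knockout label in old control mice. No member was called among oocyte groups by edgeR.

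A cell enters S phase when D-type cyclins with Cdk4 and Cdk6, and then E-type cyclins with Cdk2, phosphorylate the Rb protein and release E2F factors. The inhibitors p21, p27 and p57, encoded by Cdkn1a, Cdkn1b and Cdkn1c, bind and restrain these kinases. E2F targets load and start the replicative helicase and supply nucleotides, while mitotic genes such as Ccna2, Ube2c and Birc5 peak late in the cycle. Granulosa cells are the somatic cells around the oocyte: they multiply as a follicle grows, with cyclin D2 as a main driver under follicle-stimulating hormone, and leave the cycle when luteinising hormone triggers ovulation, when p27 and p21 rise. A metaphase II oocyte is arrested in meiosis, transcribes little, and carries stored maternal transcripts, among them replication genes for the first embryonic cleavages.

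The series holds 217 Smart-seq2 libraries, which amplify full-length cDNA of single cells or small pools: 171 single metaphase II oocytes in 10 groups, 18 granulosa pools in 6 groups of 3, and 28 single oocytes of the C57BL6 strain. The first 2 sets came from mice on a mixed C57BL6/129 background, either wild type or labelled knockout for Tet2, an enzyme that oxidises 5-methylcytosine. The labels do not state the allele. Granulosa cells came from young (2 months) wild-type and knockout-labelled mice, and from old (10 months) mice of both labels that drank either the solvent DMSO (control) or plant polyphenol resveratrol (30 mg per L) from 2 months of age. All were primed with pregnant mare serum gonadotropin, and the cells were released from visible follicles and passed through a 40 µm strainer. Oocyte groups had the same design plus middle-aged mice (6 months), after a further injection of hCG. The labels give the granulosa pool as 500 cells in one place and 50 in another. No animal is named for any library, and p-values therefore speak only for the spread among these libraries, which may be technical. In pools, fewer cycling cells and less RNA per cell cannot be told apart.

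Of the 18 granulosa libraries 5 were shallow, with 470647 to 749172 counts: all 3 of young wild type and libraries 1 and 3 of the young knockout label. The other 13 held 5995491 to 20537935 counts, and oocyte libraries 3386039 to 8775154 on the mixed background and 3470831 to 11358927 in C57BL6. Depth and age therefore cannot be told apart for wild-type granulosa cells. Tet2 itself ran from 4.69 to 15.6 CPM (counts scaled to a library total of 1000000) in 9 wild-type granulosa libraries and from 8.01 to 20.9 CPM in the 9 labelled knockout, so it was not lower there and the groups are called by their label throughout. In oocytes the median was 2.81 CPM in 86 wild-type and 0.898 CPM in 85 knockout cells. Of the granulosa markers, Inha, a subunit of inhibin, was at 670 to 5168 CPM and Hsd17b1 at 21.3 to 143, while Amh had a median of 0.399 and Cyp19a1 of 3.35. The steroidogenic genes Cyp11a1 (1453 to 6086 CPM) and Star (126 to 694) were abundant. Of the 5 endothelial markers, Tek and Emcn were at 0 in all 18 libraries and Kdr reached at most 1.04 CPM. Cdh5 (7.57 to 30.4 CPM) and Pecam1 (1.73 to 8.10) were present in every library. The 12 oocyte markers took 0.00892 to 0.0270% of counts in the young wild-type libraries, 0.0112% and 0.0152% in the shallow young knockout-labelled ones, and at most 0.00102% in old libraries. The 12 macrophage and leukocyte markers took 0.00109 to 0.00300% of counts in young wild type, 0.00634 to 0.0111% in old control wild type, 0.0146 to 0.0308% in old resveratrol wild type, 0.116 to 0.152% in old control knockout label and 0.0294 to 0.0620% in old resveratrol knockout label. In the young knockout label they took 0.0832% in library 2 and 0.00280% or less in the others. The 5 erythroid markers took 0.000212 to 0.0542% of counts in young wild type and 0.0262 to 0.0479% in the young knockout label. In old libraries they took 0.0271 to 0.760%.

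Promoters are shown for the members called with the largest differences among granulosa groups, Ube2c and Birc5 on the mitotic side and Cdkn1b on the side of the inhibitors, so that their motif content can be set beside their values. The sequences are from RefSeq on GRCm38.p6, the assembly of mm10, and run 5′ to 3′ up to the RefSeq start. Only the Ube2c stretch, printed with 249 bases, stops just short of that start. Its last 30 bases lie inside the gene as GENCODE vM21 annotates it. Capitals mark matches on either strand to the motifs searched: TTTGAA, the cell cycle homology region (CHR) bound by the DREAM and MuvB complexes, TTTNNCGC, an E2F core, and CCAAT, the NF-Y box. In CCAATTGG of Ube2c both strands match.
Ube2c, chr2:164769679-164769927, plus strand: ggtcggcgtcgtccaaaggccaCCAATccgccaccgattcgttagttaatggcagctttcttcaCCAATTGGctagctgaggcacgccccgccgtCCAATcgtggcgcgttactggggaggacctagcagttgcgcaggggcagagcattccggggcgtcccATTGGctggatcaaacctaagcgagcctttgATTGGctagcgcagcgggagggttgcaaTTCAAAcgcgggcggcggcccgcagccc
Birc5, chr11:117848987-117849236, plus strand: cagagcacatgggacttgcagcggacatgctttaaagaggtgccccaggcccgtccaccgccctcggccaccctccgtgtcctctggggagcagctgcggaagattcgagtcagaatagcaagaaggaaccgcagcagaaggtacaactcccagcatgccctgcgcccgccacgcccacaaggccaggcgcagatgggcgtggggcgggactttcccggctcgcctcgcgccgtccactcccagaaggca
Cdkn1b, chr6:134920151-134920400, plus strand: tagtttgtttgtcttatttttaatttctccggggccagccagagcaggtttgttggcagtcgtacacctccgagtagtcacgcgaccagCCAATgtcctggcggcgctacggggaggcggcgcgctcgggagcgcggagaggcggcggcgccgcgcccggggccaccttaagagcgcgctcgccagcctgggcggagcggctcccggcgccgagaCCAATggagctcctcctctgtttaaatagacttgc

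Ube2c held 1 CHR match and 6 CCAAT matches, Cdkn1b held 2 CCAAT matches, and Birc5 held none of the 3 motifs. RefSeq promoters were matched for 28 of the 38 members. CHR letters were in 6 of these 28 (Cdc45, Kif11, Mcm2, Mki67, Top2a and Ube2c), against 16.3% of all 27025 promoters of the same 250 bases. E2F letters were in 5 (Cdc6, Cdk2, Cdk6, Mcm5 and Mcm6), against 4.41%, and CCAAT in 17, against 34.2%. A match is a description of these letters and not a site of binding. On GRCm38 the genes themselves lie at chr2:164769898-164778822 (Ube2c, plus strand), chr11:117849251-117855743 (Birc5, plus strand), chr6:134920401-134925513 (Cdkn1b, plus strand), chr2:132249162-132253314 (Pcna, minus strand) and chr3:36564865-36572150 (Ccna2, minus strand). Counts are sums over the exons of each gene.

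To compare levels between genes, CPM scaled with edgeR's TMM factors was divided by the length of each gene's exons in kilobases and averaged over the 6 granulosa groups. On this per-kilobase scale the level of Cdk4, the D-cyclin kinase, stood first of all 38 with 157.5, followed by Cdkn1a (p21) with 68.6 and Ube2c, the ubiquitin-conjugating enzyme of the anaphase-promoting complex, with 63.0. Among S phase genes, Pcna, the sliding clamp of DNA polymerase, led with a level of 48.9 per kilobase, then Rrm2, the small subunit of ribonucleotide reductase, with 15.8, and the helicase loader Cdc6 was lowest with 0.349. Among mitotic genes Birc5 (survivin) had 18.5 and Ccna2 (cyclin A2) 16.04, and the transcription factor Foxm1 was lowest with 1.09. Cdkn1b (p27) had a mean level of 15.04 per kilobase. Cyclin D2 (Ccnd2, 4.19) and cyclin D3 (Ccnd3, 7.22) stood above cyclin D1 (Ccnd1, 0.607). The helicase subunits Mcm2 to Mcm7 spanned 1.44 (Mcm2) to 8.36 (Mcm7), and E2f1 (0.415) and Cdkn1c (0.213) were near the bottom. The range over group means was wide for Cdkn1b, from 3.398 in young wild type to 25.5 in old resveratrol wild type, and narrow for Mcm7, from 7.46 to 9.39.

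**Figure D1:**
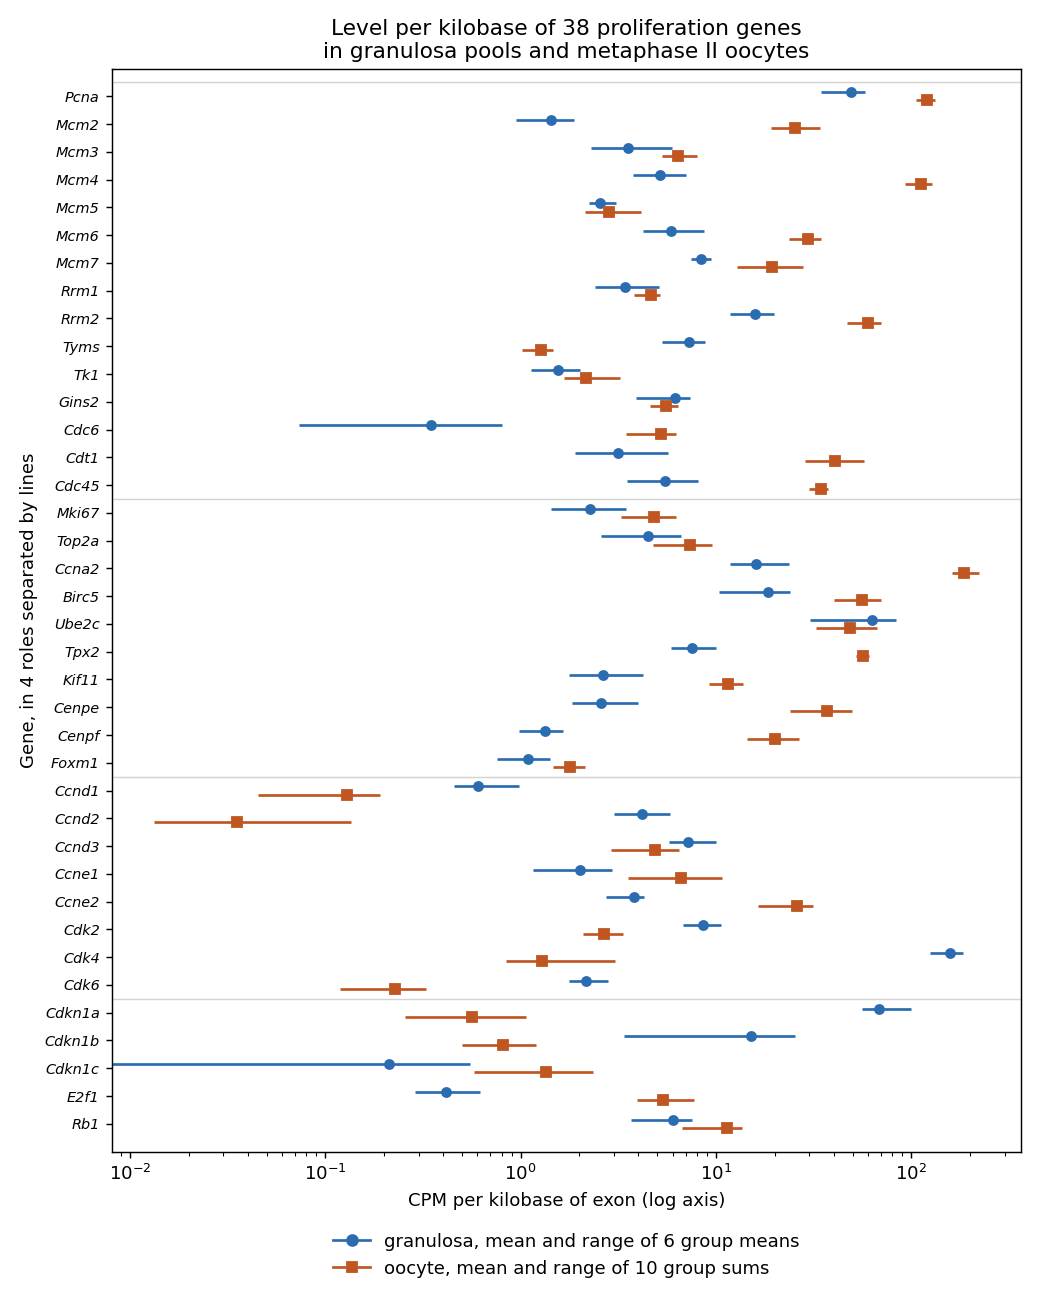
Level per kilobase of exon (log axis) of the 38 genes in granulosa cells and in oocytes, each point the mean over groups and each bar the range from the lowest to the highest group (6 granulosa group means, 10 oocyte group sums). Cdk4, Cdkn1a and Ube2c lead in granulosa cells, and Ccna2, Pcna and Mcm4 lead in oocytes.

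The library values that follow are TMM-scaled CPM, in the order of libraries 1, 2 and 3 of each group. Where they set apart more than 2 groups, the share of all genes that separate in this way was not counted. Pcna measured 111, 152 and 92.8 in young wild type and 113, 113 and 75.2 in the young knockout label. In old mice it measured 76.9, 82.8 and 89.6 (control wild type), 153, 150.3 and 109 (control knockout label), 140.0, 106 and 134 (resveratrol wild type) and 143, 128 and 143 (resveratrol knockout label). The 3 old control wild-type libraries lay below every library of the other old groups and of young wild type. Cdc6 measured 3.04, 2.02 and 7.57 in young wild type from 2, 1 and 4 counts, 4.13, 3.19 and 0 in the young knockout label, and 0.0895 to 2.55 in the 12 old libraries. Its young levels rest on few counts in all but library 2 of the knockout label.

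Ube2c measured 89.6, 109 and 98.4 in young wild type and 274, 197 and 159 in the young knockout label. In old control mice it measured 57.5, 60.0 and 119.5 in wild type and 145, 147 and 197 in the knockout label. With resveratrol it measured 282, 187 and 184 in old wild type and 215, 214 and 211 in the old knockout label. Both wild-type groups without resveratrol thus stayed at or under 119.5, and the other 4 groups at or above 145, with no overlap. Birc5, an inhibitor of apoptosis that also guides chromosomes within the passenger complex, was ordered alike. It measured 24.3, 46.6 and 45.4 in young wild type, 79.9, 76.3 and 72.4 in the young knockout label, 28.3, 32.5 and 44.5 in old control wild type and 69.8, 54.6 and 78.9 in old control knockout label. With resveratrol it measured 95.9, 81.6 and 56.4 in wild type and 96.2, 70.3 and 78.2 in the knockout label. Its highest value in wild type without resveratrol was 46.6 and its lowest in the other groups 54.6. For neither gene was the share of all genes with the same split of groups counted.

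Ccna2, the cyclin of S phase and early mitosis, measured 37.97, 56.7 and 64.4 in young wild type and 84.0, 107 and 97.0 in the young knockout label. In old mice it measured 43.5, 44.5 and 56.3 (control wild type), 66.3, 55.1 and 55.5 (control knockout label), 67.1, 72.3 and 66.4 (resveratrol wild type) and 68.2, 63.9 and 72.3 (resveratrol knockout label). The 3 young knockout-labelled libraries were the highest of the 18. Foxm1, which drives many G2 and mitotic genes, was low, at 2.17 to 7.78 in the 6 old control libraries, 5.19 to 10.4 in the 6 old resveratrol libraries and 4.05 to 11.4 in the 6 young ones, and these ranges overlap. Top2a, which untangles DNA, measured 51.6, 58.7 and 51.1 in young wild type and 15.1, 24.5 and 30.5 in old control wild type, and the proliferation antigen Mki67 measured 36.5, 30.4 and 34.1 against 10.4, 15.5 and 17.1. Both were lower in every old control wild-type library than in any young wild-type library.

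Cdk4 measured 419, 421 and 379 in young wild type and 659.9, 545 and 400.5 in the young knockout label. In old mice it measured 457, 445 and 543 (control wild type), 487, 496 and 568 (control knockout label), 623, 579 and 583 (resveratrol wild type) and 538, 589.9 and 479 (resveratrol knockout label). The level was high in every library, and the young wild-type libraries did not overlap the old control wild-type ones. Ccnd2 measured 44.0, 18.2 and 37.9 in young wild type and 37.2, 32.4 and 15.04 in the young knockout label. In old mice it measured 30.0, 34.5 and 37.9 (control wild type), 42.2, 43.3 and 49.4 (control knockout label), 42.6, 37.3 and 42.3 (resveratrol wild type) and 53.4, 54.0 and 57.1 (resveratrol knockout label). In old mice the knockout label was thus above wild type within each treatment. Ccnd1 ran from 0 to 5.77 over the 18 libraries, with overlapping groups.

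Cdkn1b, which holds Cdk2 inactive, measured 21.3, 8.10 and 17.0 in young wild type, from only 14, 4 and 9 counts. The young knockout label gave 4.13, 79.8 and 26.0, where the value of 79.8 belongs to the deep library 2 (1002 counts) and the others to shallow ones (3 and 19 counts). In old mice it measured 124, 123 and 78.1 (control wild type), 119.9, 77.9 and 19.3 (control knockout label), 129, 92.8 and 126 (resveratrol wild type) and 46.9, 60.7 and 78.2 (resveratrol knockout label). Every old wild-type library was above every young wild-type library, and the knockout label overlapped between ages. Among the 5 shallow libraries it ranged from 4.13 to 26.0, and the deep ones were higher except library 3 of the old control knockout label. Cdkn1a measured 409, 352 and 301 in young wild type and 416, 141 and 286 in the young knockout label. In old mice it measured 197, 197 and 199 (control wild type), 124, 185 and 333 (control knockout label), 191, 232 and 202 (resveratrol wild type) and 189, 255 and 181 (resveratrol knockout label). The old control wild-type values were below those of young wild type. Cdkn1c had 0 counts in all 3 young wild-type libraries and in young knockout-labelled libraries 1 and 3. In old control wild type it measured 1.86, 0.690 and 0.805, below the 4.69 to 6.37 CPM that 3 counts are worth in the young wild-type libraries, so no fold is given.

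**Figure D2:**
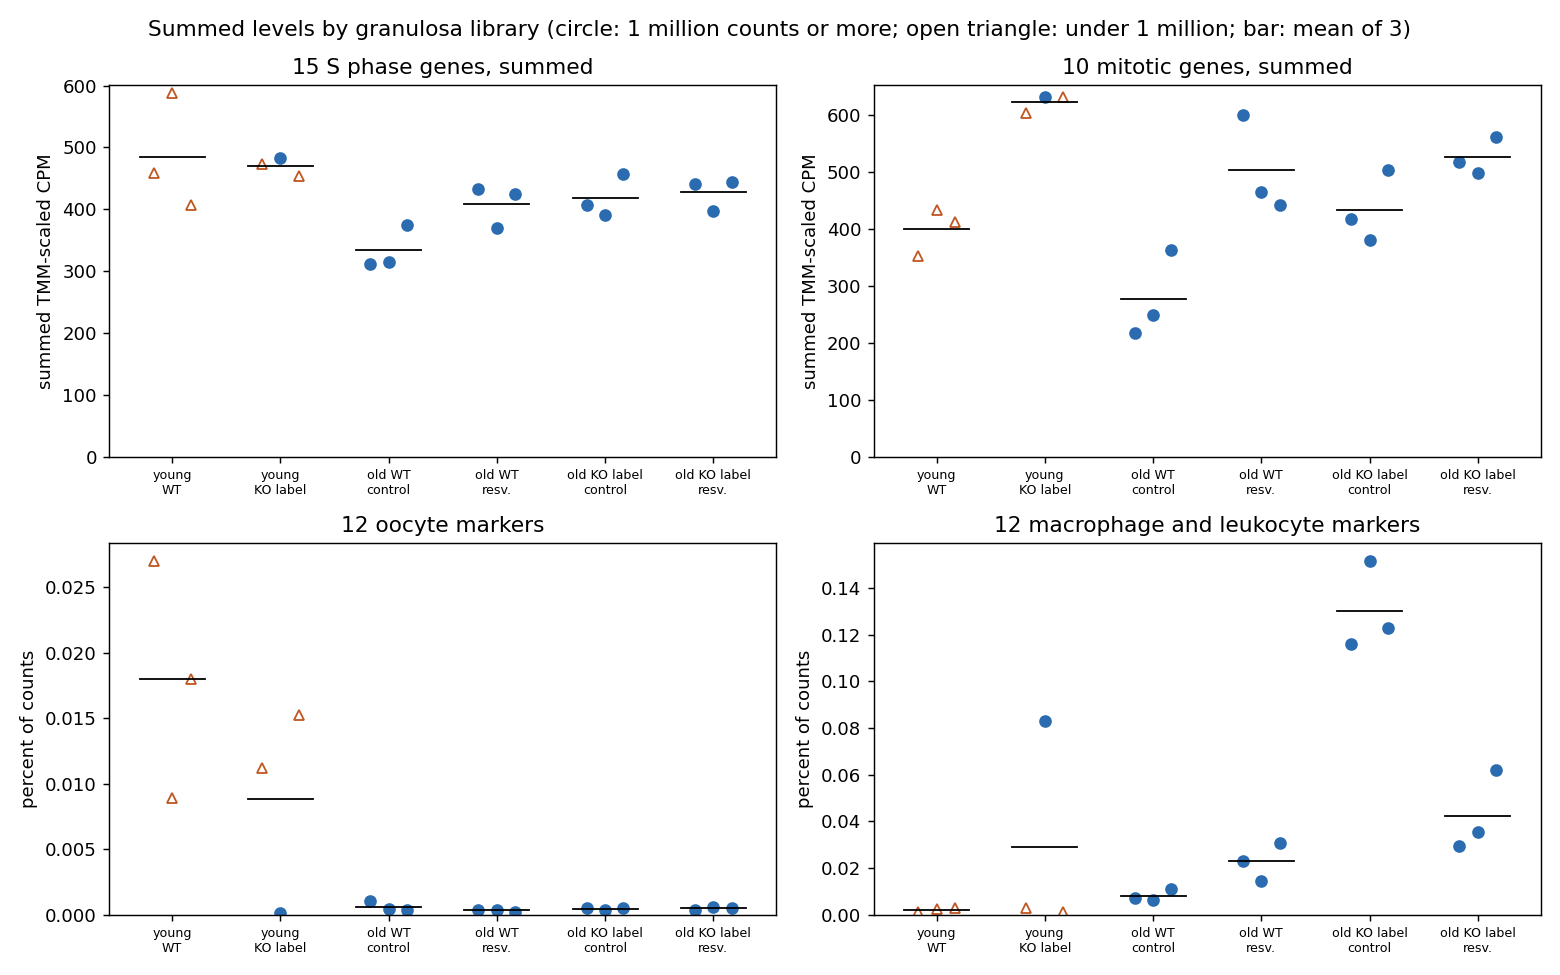
Summed TMM-scaled CPM of the S phase and mitotic genes, and the share of counts (percent) of oocyte and of macrophage and leukocyte markers, in the 18 granulosa libraries by group. The mean mitotic sum is lowest in old control wild type (217 to 362), where library 3 overlaps young wild type (352 to 433), and the oocyte marker share is highest in the 5 shallow libraries.

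Summed over the 15 S phase genes, levels were 459, 587 and 407 in young wild type and 311, 314 and 375 in old control wild type. The mitotic sum was 352, 433 and 411 in young wild type, 603, 631 and 631 in the young knockout label, and 217, 249 and 362 in old control wild type. It was 417, 379 and 503 in old control knockout label, 600.0, 465 and 442 in old resveratrol wild type and 517, 497 and 560.3 in old resveratrol knockout label. The mitotic sum of each old control wild-type library lay below every library of the other old groups.

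The first comparison asked what age changed in wild-type granulosa cells, 10 against 2 months. Old control mice had drunk DMSO from 2 months of age, and none is stated for the young mice. Age and solvent therefore cannot be told apart, here or in the knockout label. Cdkn1b rose, from 15.5 ± 6.72 CPM (SD, n = 3) to 108 ± 26.2, a log2 difference of 2.77 (SE 0.69, edgeR quasi-likelihood test with Benjamini-Hochberg adjustment, adjusted p = 0.0434). It was the only one of the 38 called, while 1.53% of the 17558 genes tested were called, 0.843% higher and 0.683% lower. Among members that did not pass, log2 differences were −1.19 for Top2a (SE 0.31, adjusted p = 0.0505), −1.22 for Mki67 (adjusted p = 0.0761), −3.38 for Cdc6 (adjusted p = 0.0891), −1.10 for the spindle motor Kif11 (adjusted p = 0.164) and −0.84 for Cdkn1a (adjusted p = 0.181). The median difference over the 38 was −0.49, with 11 positive, or −0.51 with 10 of 37 positive when Cdkn1c is left out, against 0.17 over all genes tested. In S phase 2 of 15 differences were positive, in mitosis 1 of 10. Groups did not overlap for Cdk4 and Cdkn1b, which were higher with age, and for 11 that were lower (Pcna, Mcm6, Rrm1, Cdc6, Cdt1, Cdc45, Mki67, Top2a, Tpx2, Kif11 and Cdkn1a). Cdkn1c, at 0 in the young libraries, is left out here, since their depth could not have shown its old level. Of all genes 23.8% were higher and 8.01% lower without overlap. These shares still hold genes at 0 in the young libraries, and counted so 3 members were higher, Cdkn1c included.

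Of 40 other mitotic genes, chosen by name, 3 fell with age in wild type: Kif23, a kinesin of the central spindle (log2 difference −1.96, SE 0.28, adjusted p = 0.000411), the mitotic kinase Aurkb (−1.49, adjusted p = 0.0345) and cyclin F, Ccnf (−1.87, adjusted p = 0.0459). Their median was −0.62, with 4 of 40 positive, and none of 40 other replication genes, 22 other G1 and pocket protein genes or 12 p53 target genes was called. Other settings called members that were lower with age: 3 without the filter (Cdkn1a, Mki67 and Top2a), 3 with DESeq2 (Cdc6, Mki67 and Top2a) and 6 with only these 2 groups in the model (Cdkn1a, Kif11, Mcm6, Mki67, Top2a and Tpx2). Over all genes, calls lower with age also rose, from 120 to 260, 328 and 539 in these settings. The Cdkn1b call was lost without any 1 of the 6 libraries (adjusted p from 0.0560 without old control library 3 to 0.170 without young library 3) and with the size factors of DESeq2 (RLE) in edgeR (adjusted p = 0.0516). With RLE Top2a was the only member called, lower with age, as were 137 of all genes. Of the marker lists, 3 of 9 oocyte markers tested fell with age here, and no other marker was called. The 6 luteal markers took 0.636 to 0.719% of counts in young and 1.04 to 1.26% in old control wild type. An unadjusted p under 0.05 by edgeR was had by 5 of 5 erythroid, 3 of 6 luteal and 2811 of all 17558 genes. The part of these markers in the Cdkn1b value was not tested. Oocyte RNA was estimated from the share of oocyte markers over that share in the metaphase II oocytes, taken after hCG. This gave 1.27, 0.420 and 0.846% of young wild-type libraries 1 to 3. At the levels of those oocytes it would carry, in library 1, 0.213% of the Cdkn1b level, 1.57% of Top2a, 3.23% of Pcna, 9.57% of Birc5 and 25.1% of Ccna2. In library 3 it would carry 37.3% of Mcm2, which had 2 counts there. Oocytes of the follicles that gave the granulosa cells were not measured, so these values set no upper limit.

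Age in the knockout label, 10 months on control against 2 months, addressed the same question in the other arm. Ccna2 fell, from 96.1 ± 11.6 CPM (SD, n = 3) to 59.0 ± 6.35, a log2 difference of −0.72 (SE 0.19, edgeR, adjusted p = 0.0300), the only member called, while 5.17% of all genes tested were called, 4.09% higher and 1.08% lower. All 10 mitotic differences were negative, with Mki67 at −1.02 (adjusted p = 0.0586), Top2a at −0.90 (adjusted p = 0.0617) and Kif11 at −1.11 (adjusted p = 0.0643). In S phase 2 of 15 were positive, and the helicase subunit Mcm3 (−1.25, adjusted p = 0.0670) and the helicase activator Cdc45 (−0.96, adjusted p = 0.0680) had the lowest p. The median over the 38 was −0.30, with 10 positive, against 0.10 over all genes. Without overlap, Ccnd2 was higher and Mcm3, Cdc45, Ccna2, Tpx2, Cenpe and Cdk2 were lower in the old libraries, where 15.4% of all genes were higher and 3.76% lower.

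Of the 40 other mitotic genes 9 fell here: Ect2, a cytokinesis regulator (−1.30, adjusted p = 0.00646), Kif23 (−1.17, adjusted p = 0.00947), Cdca8 of the passenger complex (−0.98, adjusted p = 0.0199), Prc1, Bub1b, Hmmr, Bub1, Ncapg and Ccnb1. Of 40 other replication genes the histone chaperone Asf1b fell (−1.10, adjusted p = 0.0463), and none of the other G1 or p53 target genes was called. Ccna2 lost its call without young library 2 (adjusted p = 0.0737) or 3 (0.0514), without old library 1 (0.0501), 2 (0.117) or 3 (0.0544), with only these 2 groups in the model (0.209), without the filter (0.0569) and with all libraries thinned to 1 depth (0.0607). At 1 depth Mcm3 was the only member called, lower with age, as were 121 of all genes. Young library 2, the deep one, had almost no oocyte marker RNA (0.000103% of counts), and oocyte RNA estimated in the same way would carry 5.00, 0.0323 and 5.62% of the Ccna2 level in young libraries 1 to 3 and at most 0.340% in the old ones. Of the marker lists, 5 of 12 macrophage and leukocyte markers rose with age here, 5 of 9 oocyte markers tested and 2 of 6 luteal markers fell, and of 10 granulosa markers Nr5a2 rose and Inha fell. The part of the macrophage, luteal and granulosa markers in the Ccna2 value was not tested.

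Resveratrol against control in old wild-type mice asked whether the polyphenol changed aged granulosa cells. Ube2c rose, from 79.0 ± 35.1 to 218 ± 56.0 CPM (SD, n = 3), a log2 difference of 1.46 (SE 0.26, edgeR, adjusted p = 0.0111). Birc5 rose, from 35.1 ± 8.43 to 78.0 ± 19.98, a difference of 1.15 (SE 0.23, adjusted p = 0.0238). These were 2 of 38 members, while 1.62% of all genes tested were called, 1.17% higher and 0.456% lower. All 10 mitotic differences were positive, and next in p were Pcna (0.61, adjusted p = 0.114), the thymidylate synthase gene Tyms (0.66, adjusted p = 0.122) and Ccna2 (0.51, adjusted p = 0.147), none past the threshold. The median over the 38 was 0.20, with 27 positive, against 0.01 over all genes. Without overlap 8 were higher with resveratrol (Pcna, Tyms, Gins2, Ccna2, Birc5, Ube2c, Ccne1 and Cdk4) and 0 lower, where 17.6% of all genes were higher and 13% lower.

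Of 40 other mitotic genes 3 rose: Cdca3, a trigger of mitotic entry (log2 difference 1.16, adjusted p = 0.0231), Cks1b, a kinase subunit (0.95, adjusted p = 0.0238), and the spindle checkpoint gene Mad2l1 (0.85, adjusted p = 0.0499). Of 40 other replication genes, Gmnn, which blocks helicase loading, rose (0.81, adjusted p = 0.0282) and Rpa1, of the single-strand binding complex, fell (−1.08, adjusted p = 0.0279). Cdkn2b (p15), an inhibitor of Cdk4, rose (1.62, adjusted p = 0.0238), and no p53 target gene was called. The calls of both Ube2c and Birc5 were lost without control library 1 (adjusted p = 0.117 and 0.200) or 2 (0.113 and 0.149), without resveratrol library 1 (0.0918 and 0.149) and at 1 depth (0.0607 and 0.196), and that of Birc5 also without resveratrol library 2 (0.104). Of the 12 macrophage and leukocyte markers 6 rose in the same comparison, as did 1 of 6 luteal markers. None of the 5 erythroid markers was called, at 0.0271 to 0.421% of counts on control and 0.0434 to 0.760% with resveratrol. The part of these markers in the values of Ube2c and Birc5 was not tested.

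In the old knockout label, resveratrol against control gave no call among the 38 (0.0285% of all genes were called). Of all 17558 genes 618 had an unadjusted p under 0.05 by edgeR, and DESeq2 called 5 higher and 13 lower. No member was among either. The lowest p were at log2 differences of 0.75 for Foxm1 (SE 0.45), 0.39 for Ube2c (SE 0.25) and 0.40 for Top2a (SE 0.26), each with an adjusted p of 1. Ube2c measured 163 ± 29.6 CPM (SD, n = 3) on control and 213.5 ± 2.04 on resveratrol, and Birc5 67.8 ± 12.3 and 81.6 ± 13.3. Without overlap Top2a, Ube2c and Ccnd2 were higher with resveratrol and 0 lower (4.98% of all genes were higher and 5.31% lower). In the other lists none was called, and the lowest p were for Prim1, of the primase (0.85), Pttg1, securin (0.49), Tfdp2, an E2F partner (0.34), and the p53 target Plk2 (−0.48). The difference between the labels in the response to resveratrol was itself tested and gave no member (0.159% of all genes were called). An unadjusted p under 0.05 was had by 3 members and by 1406 of all 17558 genes. The difference by edgeR was −1.07 for Ube2c (SE 0.35, adjusted p = 0.383), −0.88 for Birc5 (SE 0.33, adjusted p = 0.455) and −0.60 for Pcna (SE 0.28, adjusted p = 0.616). DESeq2 also gave 0 members, with 24 genes higher and 50 lower in all.

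**Figure D3:**
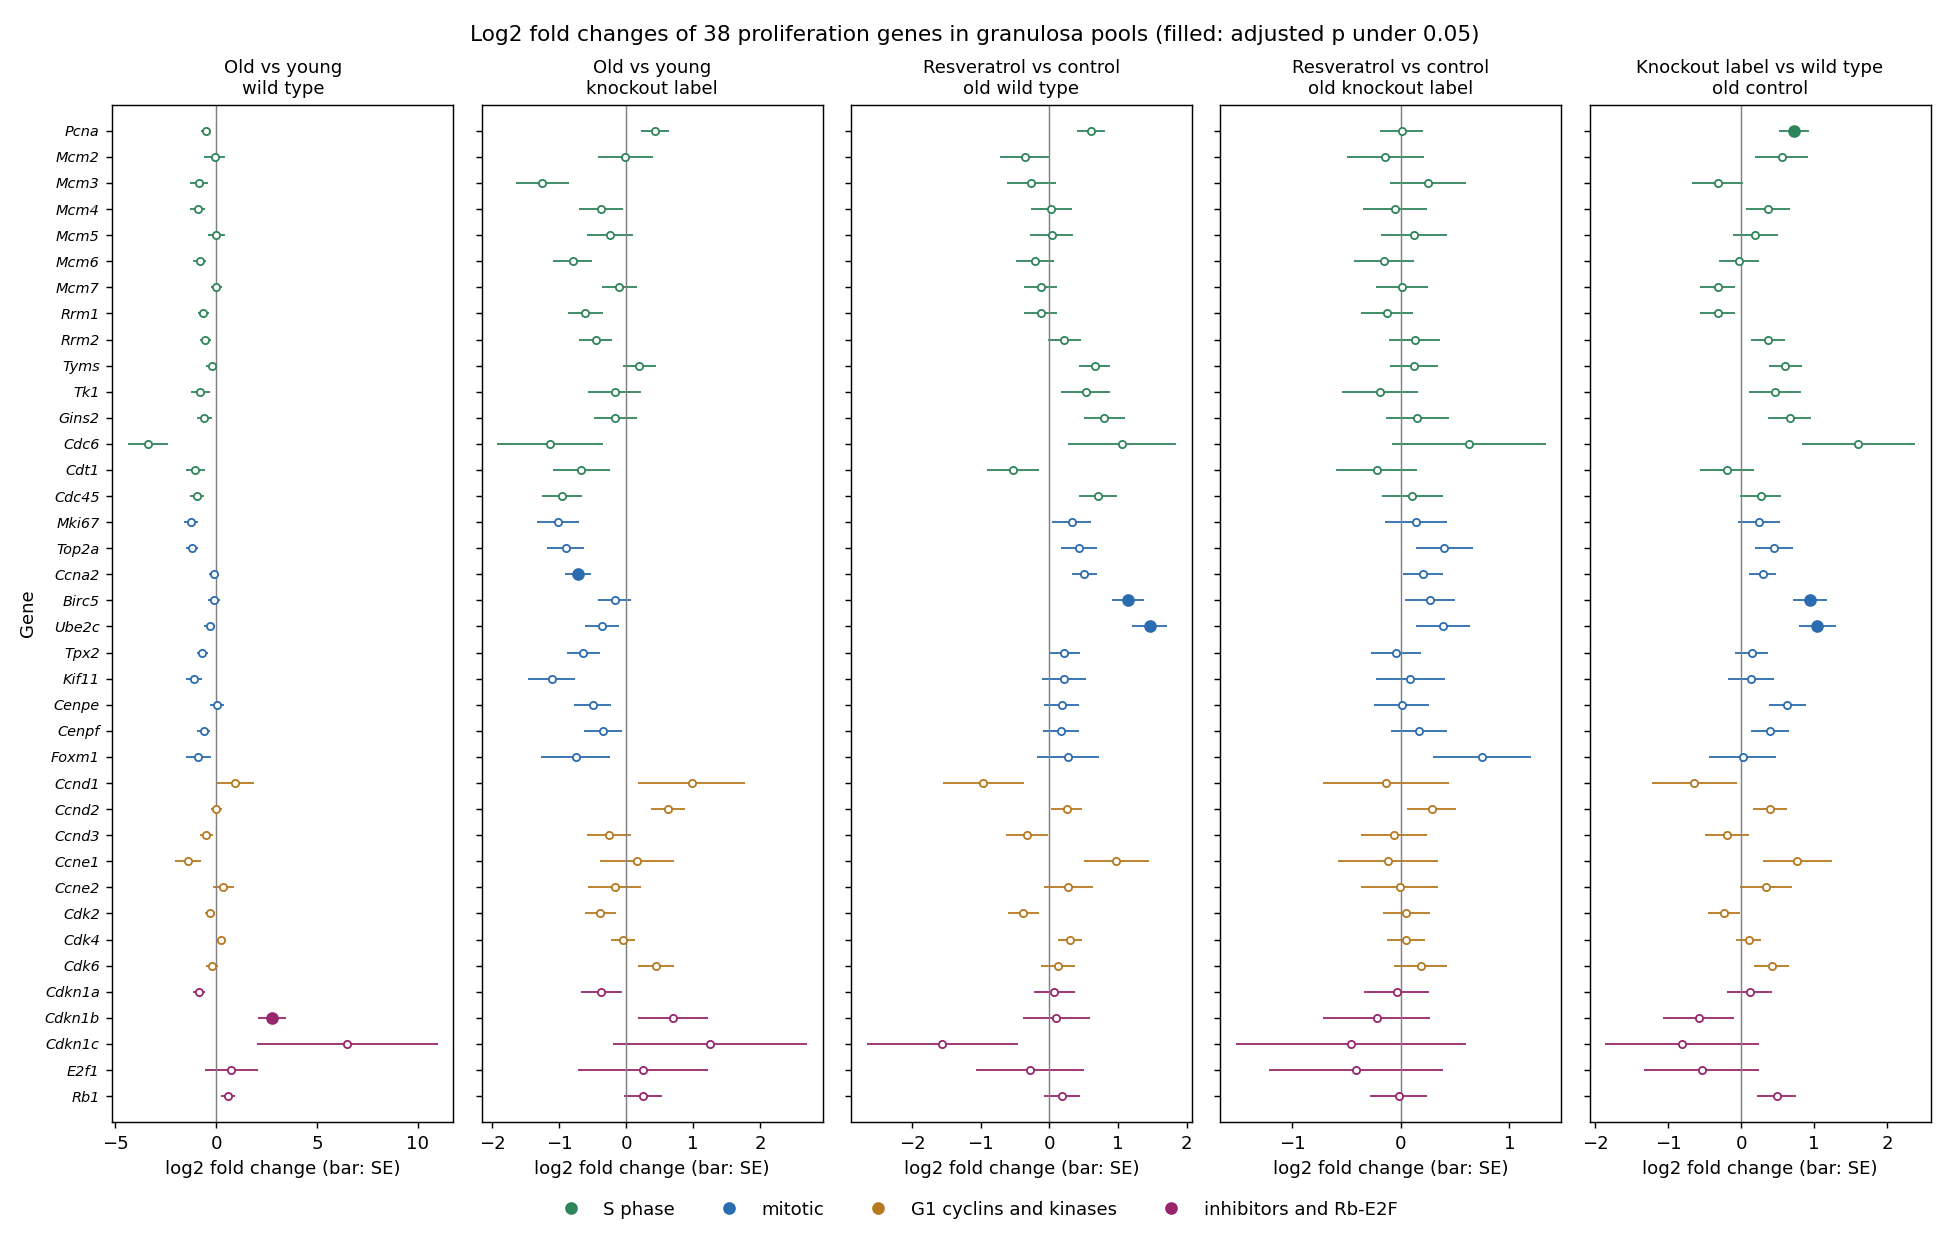
Log2 differences (x axes differ between panels) with their SE for the 38 genes in 5 granulosa comparisons, filled where the adjusted p is under 0.05. Mitotic genes lie left of 0 with age in both labels (9 of 10 in wild type, 10 of 10 in the knockout label) and right of 0 for resveratrol in wild type and for the knockout label in old control mice, and the Cdkn1c point with age in wild type has no counts in the young libraries.

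The knockout label against wild type was compared at each age and treatment. In old control mice Ube2c was higher in the knockout label, 163 ± 29.6 against 79.0 ± 35.1 CPM (SD, n = 3), a log2 difference of 1.04 (SE 0.25, edgeR, adjusted p = 0.0209). Birc5 was higher, 67.8 ± 12.3 against 35.1 ± 8.43, a difference of 0.94 (SE 0.23, adjusted p = 0.0228), and Pcna, 137 ± 24.5 against 83.1 ± 6.35, a difference of 0.72 (SE 0.20, adjusted p = 0.0434). These were 3 of 38, while 3.86% of all genes tested were called, 2.83% higher and 1.03% lower. All 10 mitotic differences and 10 of 15 in S phase were positive, and the median over the 38 was 0.28, against 0.06 over all genes. Without overlap 9 were higher (Pcna, Tyms, Gins2, Cdc6, Birc5, Ube2c, Cenpe, Ccnd2 and Cdk6) and 0 lower, where 16.7% of all genes were higher and 11.1% lower. Among the other genes, Cks1b (1.02, adjusted p = 0.00319), Cdca3 (0.96, adjusted p = 0.0185), the kinetochore gene Nuf2 (1.25, adjusted p = 0.0354), Gmnn (0.69, adjusted p = 0.0318) and Cdkn2b (1.25, adjusted p = 0.0327) were higher, 3 of 40 mitotic, 1 of 40 replication and 1 of 22 G1 genes. The 3 old control wild-type libraries also serve the comparisons of resveratrol and of age in wild type, so these results share them.

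No member stayed called without old control wild-type library 1 or 2, or at 1 depth: the adjusted p of Ube2c, Birc5 and Pcna were 0.164, 0.168 and 0.224 without library 1, 0.149, 0.132 and 0.170 without library 2, and 0.0794, 0.134 and 0.0730 at 1 depth. Pcna also lost its call with RLE factors (0.0635) and without the filter (0.0974), and Ube2c with only these 2 groups in the model (0.0574). Without knockout-labelled library 3 only Pcna kept its call (0.0326), without library 1 only Ube2c (0.0459), without library 2 only Birc5 (0.0477), and without wild-type library 3 Pcna alone lost it (0.109). Of the 12 macrophage and leukocyte markers 10 were higher in the knockout label here, and 2 of 6 luteal markers lower, whose part in the member values was not tested.

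In young mice the label gave no call among the 38 (0.114% of all genes were called). Of all 17558 genes 1904 had an unadjusted p under 0.05 by edgeR, and DESeq2 called 73 higher and 65 lower. Among these were 6 members by unadjusted p and 2 by DESeq2 (Ccna2 and Ube2c). Ccna2 differed by 0.89 on the log2 scale (SE 0.22, edgeR, adjusted p = 0.138), Ube2c by 1.08 (SE 0.28, adjusted p = 0.143) and Birc5 by 1.00 (SE 0.29, adjusted p = 0.227). These members and Cenpe were higher without overlap and none lower, where 5.47% of all genes were higher and 3.58% lower. None of the other listed genes was called, and the lowest p in each list were for Cks1b (0.95), Gmnn (0.73), Myc (−0.64) and Btg2 (−0.35). In old mice on resveratrol the label gave no call either (1.07% of all genes were called). There 1 member and 1809 of all 17558 genes had an unadjusted p under 0.05 by edgeR. DESeq2 called 0 members, with 161 genes higher and 122 lower in all. Mcm2 differed by 0.76 (SE 0.36, adjusted p = 0.472), Cdk6 by 0.47 (adjusted p = 0.533) and Ccnd2 by 0.43 (adjusted p = 0.550). Without overlap Mcm2, Cdc6, Cenpf, Foxm1, Ccnd2 and Cdk6 were higher and Rrm1 and Cdkn1b lower, where 10.5% of all genes were higher and 8.65% lower. The other lists gave no call, with the lowest p for Rpa1 (0.77), Pttg1 (0.48) and Cdkn2b (−0.71).

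The test of whether age differed between the labels called no member (0.137% of all genes were called). An unadjusted p under 0.05 was had by 2 members and by 1345 of all 17558 genes. The difference was 0.94 for Pcna (SE 0.30, edgeR, adjusted p = 0.398), −2.07 for Cdkn1b (SE 0.87, adjusted p = 0.587) and −0.60 for Ccna2 (SE 0.29, adjusted p = 0.655). The calls of Cdkn1b in one label and of Ccna2 in the other are thus not shown to differ between them. DESeq2 called 0 members, with 38 genes higher and 55 lower in all.

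Oocytes served as the contrast, with counts summed in each of the 10 groups and age, genotype and treatment as additive terms. Young groups, with no solvent stated, counted as control. None of the 38 was called by edgeR for old against young (0.00481% of all 20806 genes tested), middle-aged against young (0%), old against middle-aged (0.00481%), knockout against wild type (0.139%) or resveratrol against control (0%). Unadjusted p under 0.05 were had by 2, 2, 6, 9 and 0 members, and by 2809, 1905, 3444, 2675 and 362 of all 20806 genes. DESeq2 called 1, 0, 2, 0 and 0 members. Of all genes, higher and lower, it called 282 and 305, 173 and 30, 372 and 447, 185 and 391, and 2 and 12. With 1 sum per group, the spread is how far the 10 sums depart from these additive terms.

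Ube2c in single oocytes ran, as lowest, median and highest CPM, over 49.2, 84.2 and 133 in young wild type, 5.10, 98.8 and 213 in young knockout, 90.6, 127 and 222 in middle-aged control wild type and 46.0, 127 and 398 in middle-aged control knockout. With resveratrol the middle-aged medians were 172 in wild type and 166 in knockout. The old medians were 119.8 and 85.4 on control and 119 and 97.9 on resveratrol, wild type first. Single oocytes overlapped between all groups. Ube2c differed by 0.55 between middle-aged and young (SE 0.17, adjusted p = 0.502) and by −0.57 between old and middle-aged (SE 0.13, adjusted p = 0.113).

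Cyclin D3 (Ccnd3) ran over 37.5, 55.3 and 77.2 CPM in young wild-type oocytes and over 12.3, 21.9 and 50.9 in old resveratrol knockout ones. Its old medians were 33.1, 29.8, 36.6 and 21.9 and its young medians 55.3 and 46.9, with overlap between single oocytes. It differed by −0.86 between old and young (SE 0.17, adjusted p = 0.122 by edgeR and 0.00466 by DESeq2) and by −0.58 between old and middle-aged (SE 0.13, adjusted p = 0.113). DESeq2 called Ccnd3 and Ube2c for the latter (adjusted p = 0.00890 and 0.00948). For knockout against wild type the lowest p were for Mcm2 (log2 difference −0.42, adjusted p = 0.211), Cenpe (0.42, adjusted p = 0.219) and Ccnd2 (1.46, adjusted p = 0.235), the last at no more than 4.15 CPM in any oocyte. For resveratrol they were Rrm2 (−0.22), Ccne2 (−0.20) and Foxm1 (0.18), each at an adjusted p of 1.

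**Figure D4:**
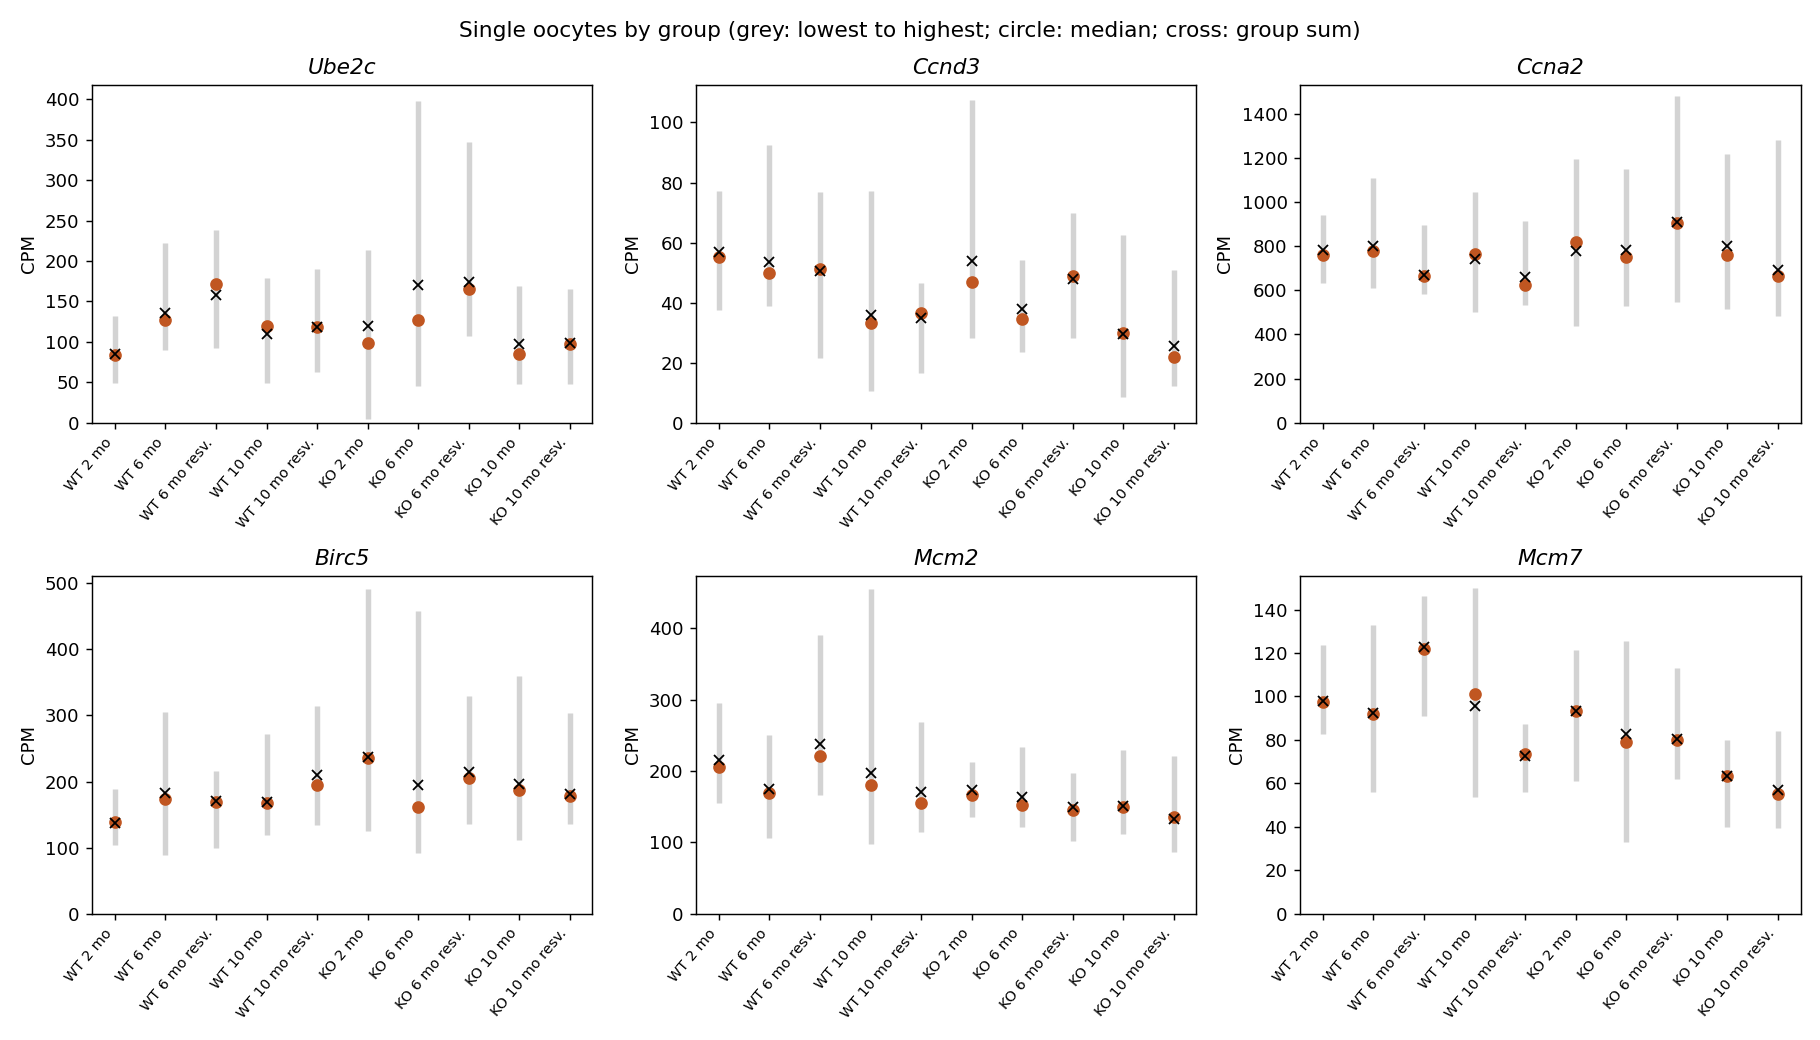
CPM of 6 genes in single oocytes by group, with a grey line from the lowest to the highest oocyte, a circle at the median and a cross at the value of the summed counts. The median of Ccnd3 is 55.3 in young wild type and 21.9 in old resveratrol knockout, groups that differ in age, genotype and treatment. Single oocytes overlap between groups.

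Granulosa cells and oocytes were set against each other over 6 and 10 group sums. Of the 38 members 36 were called, 8 higher and 28 lower in granulosa cells, against 89.9% of all 21164 genes tested (41.6% higher and 48.2% lower). Of the 8 that were higher, 5 are G1 cyclins and kinases, namely Cdk4 (log2 difference 6.27), Ccnd2 (6.25), Cdk6 (2.59), Ccnd1 (1.497) and Cdk2 (0.88), and 2 are inhibitors, Cdkn1a (6.10) and Cdkn1b (3.68). The other was Tyms (1.88), of S phase. The 28 that were lower held 14 of 15 S phase and 9 of 10 mitotic genes, led by Mcm4 (−5.25), Mcm2 (−4.87), Cdc6 (−4.80), the centromere proteins Cenpf (−4.63) and Cenpe (−4.48), the helicase loader Cdt1 (−4.61), Ccna2 (−4.23) and E2f1 (−4.17). The other 20 were Pcna, Mcm3, Mcm5, Mcm6, Mcm7, Rrm1, Rrm2, Tk1, Gins2 and Cdc45 of S phase, Mki67, Top2a, Birc5, Tpx2, Kif11 and Foxm1 of mitosis, the E cyclins Ccne1 and Ccne2, and Cdkn1c and Rb1, at −3.62 (Tpx2) to −0.58 (Gins2). Ube2c (−0.31, adjusted p = 0.229) and Ccnd3 (−0.24, adjusted p = 0.226) were not called. The median over the 38 was −1.88, against −0.38 over all genes. Scaling by library totals alone moved the median of all genes by 0.69, and Gins2, at −0.58 above (adjusted p = 0.00155), then stood at 0.12 (adjusted p = 0.358).

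Per kilobase, the oocyte level was highest for Ccna2 (187), Pcna (121) and Mcm4 (113), and stood at 60.3 for Rrm2, 56.7 for the spindle factor Tpx2, 55.6 for Birc5 and 48.7 for Ube2c. Cdk4 had 1.29, Cdkn1b 0.809, Cdkn1a 0.563 and Ccnd2 0.0352. The order of the cyclins thus differed between the cell types: Ccne2 (26.1) was above Ccnd3 (4.86) in oocytes, and Ccnd3 (7.22) above Ccne2 (3.82) in granulosa cells.

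The C57BL6 oocytes, from a separate table, held 11 middle-aged control, 6 old control and 10 old resveratrol cells, and 1 cell was left out because its treatment tag contradicts its title. With 1 sum per group and no named animals, these are levels with no test. Ube2c ran, as lowest, median and highest CPM, over 46.4, 76.9 and 139 in middle-aged control, 53.6, 86.7 and 154 in old control and 109, 186 and 347 in old resveratrol. Birc5 ran over 120.5, 164 and 213, then 150.1, 171 and 199.9, then 193, 306 and 573 in the same order. Both genes had their highest median in old resveratrol oocytes, and the ranges overlap. Ccna2 ran over 576, 743 and 1290, then 289.6, 458 and 524, then 282, 456 and 566. Its middle-aged and old control ranges did not overlap, and the share of all genes that separate in this way was not counted. Pcna had medians of 219.5, 229 and 203 and Cdkn1b of 3.81, 4.39 and 4.26, with overlap.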

How the data were processed

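Counts per gene were deposited by the authors as whole numbers, not normalized, in tables of 53619 rows. Per the submitters' processing notes, the tools were HISAT2 2.1.0, featureCounts and DESeq2, with mm10. The use of strand was not given in the sources used here. Genes that overlap, run antisense or are near copies can therefore share reads. No column was left unused. Titles set the groups, also for young wild-type oocytes, whose genotype tag says knockout. The first C57BL6 old resveratrol column was placed by its group alone, since its name could be read as title 1 or 11.

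Counts were tested with edgeR 4.0.16 (R 4.3.3): quasi-likelihood, TMM factors, filterByExpr with a minimum count of 10, two-sided, Benjamini-Hochberg over all genes tested, threshold 0.05. Granulosa libraries entered 1 model of 6 group means (12 residual degrees of freedom, biological coefficient of variation 0.306), oocyte sums an additive model (5) and the cell types a model of 16 sums (14). The scripts were tested on simulated data. SE is the log2 difference over the square root of F. Depths and the worth of 3 counts are given with the results and cover counting error only. Exon lengths and positions are from GENCODE vM21 (GRCm38).

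Members and lists were chosen with earlier results of these data known. Every called member is named, or the 3 lowest in p where none passed. Library values are given for called members, the 2 lowest in p and the highest and lowest per kilobase of each role, and Top2a and Mki67, which were added after their values were seen. From other lists up to 3 called genes per direction with the lowest p are given values, else 1. Alternatives were DESeq2 1.42.0, its size factors (RLE), no filter, only the groups compared, a replicate block, binomial thinning to 1 depth, leaving out shallow libraries and each library in turn, and, for the cell types, library totals alone or 18 granulosa libraries.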

Additional observations from a re-analysis of the deposited data

Results flagged for a closer look

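Among the C57BL6 oocytes, old resveratrol oocyte 5 had a Ube2c level of 347 CPM, far above the other 9 oocytes of its group (median of the 10 oocytes 186 CPM). It was the only value so set apart in 10 checks of single values, where chance sets apart about 1 group in 20.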

How the results depend on the processing

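Of single-gene values under the alternatives other than leaving out libraries, 347 kept direction and side of the threshold, 15 lost it, 7 gained it and 1 reversed: Gins2 between cell types, −0.58, was 0.12 with library totals alone. Counts of called members moved as follows, and the cause was not tested. For age in wild type (1, higher), no filter gave 4, DESeq2 4, only the groups compared 7 and 1 depth 2, each with Cdkn1b higher and the rest lower. All genes called, higher and lower, were 148 and 120 in the main test. In these settings they were 525 and 260, 192 and 328, 397 and 539, and 110 and 104. For age in the knockout label (1), RLE gave 5, no filter 4, DESeq2 7 and only the groups compared 0. All genes called, 719 higher and 189 lower in the main test, then were 453 and 236, 948 and 362, 736 and 481, and 88 and 16. Leaving out the shallow libraries left 1 young library, so the calls of that setting, which also moved, are not given. The median over the 38 was −0.29, against −0.30 in the main test. For resveratrol in wild type (2), DESeq2 gave 4, only the groups compared 5 and 1 depth 0. All genes called, 205 higher and 80 lower in the main test, then were 630 and 294, 1146 and 637, and 0 and 0. For the label in young mice (0), no filter gave 2 and DESeq2 2. All genes called, 18 higher and 2 lower in the main test, then were 160 and 55, and 73 and 65. For the label in old control mice (3), 1 depth gave 0, while all genes called went from 497 higher and 181 lower to 92 and 59. For the label in old resveratrol mice (0), no filter gave 1 and only the groups compared 1. All genes called, 112 higher and 75 lower in the main test, then were 385 and 231, and 193 and 191. For the age interaction (0), no filter gave 1 (Cdkn1b), while all genes called went from 6 higher and 18 lower to 43 and 86. In oocytes DESeq2 gave 1 for old against young and 2 for old against middle-aged. Of all genes it called 282 higher and 305 lower, and 372 higher and 447 lower.

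Leaving out 1 library in turn gave 0 to 1 members for age in wild type, 0 to 6 for age in the knockout label, 0 to 2 for resveratrol in wild type, 0 to 1 for the label in young mice, 0 to 2 for the label in old control mice and 36 to 38 between cell types, and 0 to 0 in the other granulosa and oocyte comparisons. With RLE the split of all called genes moved from 148 higher and 120 lower to 82 and 137 (age, wild type), from 719 and 189 to 453 and 236 (age, knockout label) and from 205 and 80 to 93 and 72 (resveratrol, wild type), and the median of all genes moved by −0.11 and −0.10 in the 2 age comparisons.

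Replicate numbers did not pair the libraries: same-numbered deviations correlated at −0.12 to 0.15. With a replicate block 3 members were called for age in the knockout label (Ccna2, Cdc45 and Mcm3), Top2a in place of Cdkn1b for age in wild type (Cdkn1b adjusted p = 0.0513), and Pcna was lost for the label in old control mice (0.0621). Of all genes 667 were then called higher and 163 lower for age in the knockout label, and 116 and 95 in wild type. Leaving out the shallow libraries was not possible where young wild type is compared, since all 3 are shallow.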
